A study of Mus musculus with 16 samples.

Results

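The response of mouse macrophages to loss of the MiT/TFE transcription factors was compared between cells without and with progranulin. The quantity followed was the interaction of genotype and edit: the change with editing in GrnKO cells minus the change with editing in WT cells, on a log2 scale. All 16 samples of the series entered it, in 4 groups of 4, and it was tested for 15385 of the 56980 rows of the count table. GrnKO TKO cells came from Grn-/- mice and were edited at Mitf, Tfe3 and Tfeb. GrnKO Rosa26 cells came from Grn-/- mice and were edited at the Rosa26 locus, a safe-harbour site that serves as the control edit. WT TKO and WT Rosa26 cells came from Grn+/+ mice and carried the same edits. All groups were bone-marrow-derived macrophages (BMDMs) from frozen stocks of 12-week-old mice labelled male, on a C57Bl/6J background with the hTfRmu/hu knock-in, which the control groups therefore share. They were kept in M-CSF at 50 ng/mL, the growth factor that sustains macrophages, transfected as a bulk population with Cas9 ribonucleoprotein, and lysed 10 days later. The edited cells are thus a mixed pool and no single clone. The series design counts 16 animals, and the 4 batches each contain every group once.

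Progranulin, the product of Grn, is a secreted glycoprotein that is also delivered to lysosomes, where it is cut into granulins and affects lysosomal enzymes. Its loss in humans causes frontotemporal dementia or, when both copies are lost, a neuronal ceroid lipofuscinosis. Mitf, Tfe3 and Tfeb encode related basic helix-loop-helix factors that are held in the cytoplasm by mTORC1 signalling at the lysosome. When released they enter the nucleus and activate genes of lysosomes, autophagy and lipid metabolism through the CLEAR motif, an E-box. A negative interaction means that editing lowered a gene more, or raised it less, in GrnKO than in WT cells. A positive one means the reverse. The scale is multiplicative, so a gene that falls by the same factor in both genotypes has an interaction of 0 whatever its starting level.

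Totals of the estimated counts were 18387499 to 28511718 in GrnKO TKO, 28431505 to 32969401 in GrnKO Rosa26, 16246549 to 21463565 in WT TKO and 7069445 to 22469333 in WT Rosa26 libraries. WT Rosa26 of batch 1 was the shallowest. Grn itself lay at 40.7 to 56.1 CPM (counts scaled to the library size) in GrnKO TKO, 44.2 to 54.8 in GrnKO Rosa26, 2522 to 3224 in WT TKO and 2875 to 3693 in WT Rosa26, so every library had the Grn level of its label. All 10 macrophage markers were measured, with a summed level of 8619 to 9602 CPM in GrnKO TKO, 6905 to 7360 in GrnKO Rosa26, 10824 to 11089 in WT TKO and 9147 to 11480 in WT Rosa26. The lower sum in GrnKO Rosa26 cannot be read as fewer macrophages, because in bulk samples fewer cells of a type and less RNA per cell cannot be told apart. All 8 lymphocyte and all 6 mast cell markers stayed below 1 CPM in every library, as did 8 of 9 neutrophil, 6 of 7 dendritic cell and 5 of 7 stromal markers. The label gives male mice, yet Xist, which silences an X chromosome in females, reached 15.6 CPM or more in all libraries but the WT pair of batch 3. Y-linked Ddx3y reached 97.2 to 122 CPM in the GrnKO pair of batch 4 and the WT pair of batch 3, and 31.6 to 34.2 CPM in the WT pair of batch 2. It stayed at 1.22 CPM or lower in the other libraries. Both genes were thus present together in 2 pairs. The WT pair of batch 2 had Xist at 217 CPM in TKO and 212 in Rosa26. The GrnKO pair of batch 4 had 25.2 CPM in TKO and 15.6 in Rosa26. Xist and Ddx3y were at like levels in the TKO and Rosa26 samples that shared a genotype and a batch. The design lists separate animals, and whether such a pair came from cells of the same animal was not tested. Whether a library held cells of several animals, or of both sexes, was not tested either.

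The edit changed far more genes in GrnKO than in WT cells, and the interaction was called in both directions. With the quasi-likelihood test of edgeR and Benjamini-Hochberg adjustment over all genes tested, 893 genes had a positive interaction (5.8% of the 15385 tested) and 1174 a negative one (7.63%). Together these were 2067 genes (13.4%), and 4549 genes had an unadjusted p below 0.05. Editing in GrnKO cells raised 2271 genes (14.8%) and lowered 2740 (17.8%), in all 32.6%. Editing in WT cells raised 336 (2.18%) and lowered 179 (1.16%), in all 3.35%. The median interaction was 0.81 over the positive genes, -0.57 over the negative genes and -0.01 over all genes tested. A change of more than 2-fold was seen in 362 of the positive and 95 of the negative genes. Within single batches the double difference had one sign in all 4 batches for 852 of the positive (95.4%) and 1163 of the negative genes (99.1%). The fit with batch as block calls genes on these same differences, so their sign is no separate evidence.

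How many genes passed depended on the block and on single libraries. With a replicate block for each genotype and batch, which pairs the TKO and Rosa26 samples of a genotype, 1635 genes were positive and 1972 negative. Under that pairing 2063 of the 2067 genes were called again. Without any block 361 were positive and 549 negative. The share of positive among called genes was 43.2%, and it was 32.07% with no filter on low counts and 23.62% with limma on the authors' normalised values. It rose to 48.97% with a mean of 5 CPM or more and to 52.25% with counts thinned to the shallowest library. Which direction held more genes thus depended on the setting. Leaving out WT Rosa26 of batch 3 gave 1684 positive and 1924 negative genes, the highest counts with 1 library left out. The positive count fell to 505 without GrnKO Rosa26 of batch 1, 528 without WT TKO of batch 4, 556 without WT Rosa26 of batch 2, 571 and 587 without GrnKO TKO of batches 3 and 4, and 589 without GrnKO Rosa26 of batch 4. The negative count fell to 665 without GrnKO TKO of batch 4, 674 and 728 without GrnKO Rosa26 of batches 2 and 1, and 678 without WT TKO of batch 4. All 118 genes named here and called in the interaction kept their sign in every setting, and 53 of them stayed called in every setting. These genes were chosen because they were called, some of them also for one sign in all 4 batches. The settings reuse the same libraries, so the kept signs largely follow from that choice and are no separate evidence.

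GrnKO Rosa26 was the group that stood apart at these genes. Its mean was the highest of the 4 groups in 1116 of the 1174 negative genes (95.1%), against 37.7% of all genes tested. It was the lowest in 849 of the 893 positive genes (95.1%), against 37.6% of all. The opposite extreme was most often WT Rosa26, which was lowest in 733 of the 1174 negative and highest in 652 of the 893 positive genes. Over all 15385 genes tested it was lowest in 3819 and highest in 4176. The median change with editing over the negative genes was -0.48 in GrnKO and 0.10 in WT cells. Over the positive genes it was 0.67 in GrnKO and -0.18 in WT cells. These values share the libraries of the interaction and describe it. Seen the other way, Grn loss changed 767 genes (4.99%) in TKO cells and 6858 (44.6%) in Rosa26 cells.

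Most called genes passed the test of editing in GrnKO cells and missed it in WT cells. Of the 2067, 1726 (83.5%) passed the test of editing in GrnKO cells only, 744 of them positive and 982 negative. Missing the threshold does not show that WT cells did not respond. Another 163 (7.89%) passed neither test of editing, and 100 (4.84%) passed it in WT cells only. The sign was the same in both genotypes and the change larger in GrnKO cells for 31 genes, and larger in WT cells for 6. In 41 genes (1.98% of those called and 0.266% of all tested) both edits passed with opposite signs. Of the 306 genes called in both edits, 265 had the same sign.

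**Figure D1:**
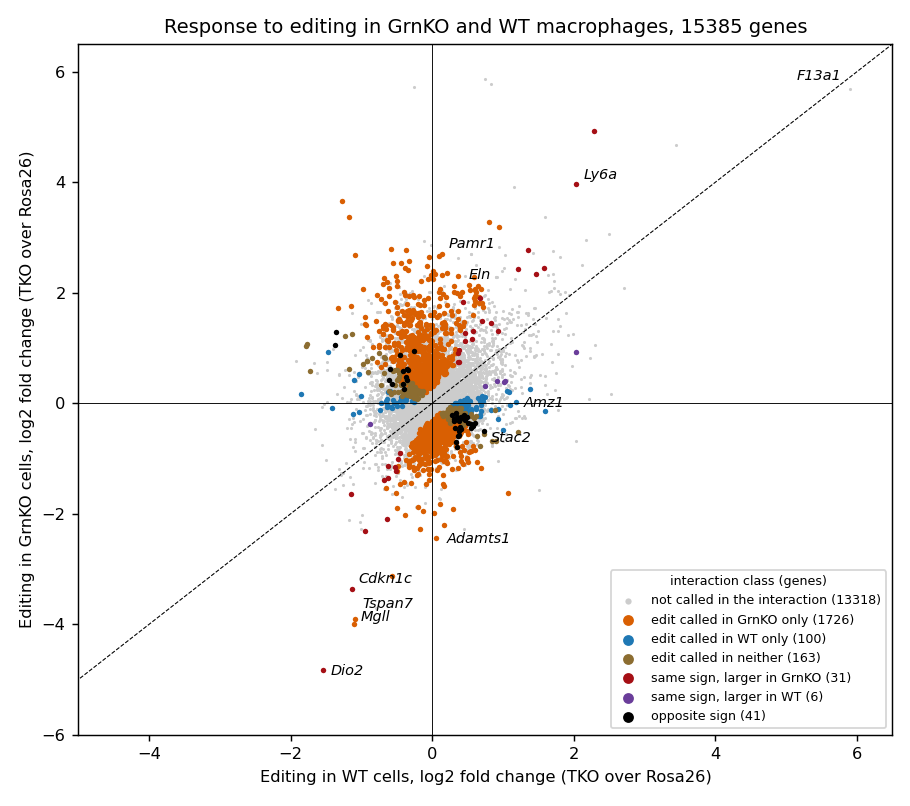
Log2 fold change with editing in GrnKO cells (vertical axis) against that in WT cells (horizontal axis) for the genes tested, coloured by interaction class; the dashed line marks equal change, and 2 genes lie outside the axes. The 1726 genes called in GrnKO cells only stretch up and down the vertical axis, the 100 called in WT cells only lie mostly along the horizontal one, and the 41 genes of opposite sign fill the upper left and lower right near the centre.

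The most negative interactions belonged to genes that were high in GrnKO Rosa26 macrophages and low in all other groups. Dio2 encodes the type 2 deiodinase, which makes active thyroid hormone from its precursor. Dio2 had 1.38, 2.97, 2.89 and 2.03 CPM in GrnKO TKO libraries (batches 1 to 4, the order of all such values), against 57.2, 69.97, 73.4 and 61.9 CPM in GrnKO Rosa26. In WT TKO it had 0.219, 0.621, 0.531 and 0.545 CPM, against 1.23, 0.958, 1.76 and 1.65 CPM in WT Rosa26. The groups did not overlap within either genotype, and Dio2 fell with editing in both, but the GrnKO cells started far higher. The edit gave -4.82 ± 0.15 in GrnKO (adjusted p = 4.0e-14) and -1.54 ± 0.28 in WT cells (adjusted p = 0.0035, log2 ± SE). For all fold changes here the SE was back-calculated, as the absolute log2 change divided by the square root of the edgeR F statistic. It is thus approximate. The interaction was -3.28 ± 0.36 (adjusted p = 3.2e-05), and the 4 batches gave -3.89 to -3.41 on the log2(CPM + 1) scale.

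Mgll, the lipase that cleaves monoacylglycerols, had 0.717, 1.52, 1.68 and 1.18 CPM in GrnKO TKO, against 18.9, 22.2, 23.8 and 17.7 CPM in GrnKO Rosa26. The level of Mgll was 0.177 to 0.603 CPM in WT TKO and 0.548 to 1.38 CPM in WT Rosa26. Only GrnKO Rosa26 libraries held more than a trace, and the interaction was -2.89 ± 0.49 (adjusted p = 0.0013). The tetraspanin gene Tspan7 showed the same order, with 1.60, 1.58, 0.841 and 0.935 CPM in GrnKO TKO, against 19.7, 18.6, 18.2 and 18.9 CPM in GrnKO Rosa26. In WT cells Tspan7 stayed at 0.0548 to 0.766 CPM with the TKO edit and 0.274 to 1.23 CPM with Rosa26. Its interaction of -2.82 ± 0.69 (adjusted p = 0.015) was no longer called without WT TKO of batch 3 (-1.96, adjusted p = 0.084). Adamts1, a secreted metalloprotease, had 1.66, 2.64, 3.26 and 1.55 CPM in GrnKO TKO, against 10.4, 16.4, 16.1 and 6.78 CPM in GrnKO Rosa26. Its WT libraries lay at 0.59 to 1.37 CPM in TKO and 0.462 to 1.37 CPM in Rosa26, fully overlapping. The whole difference thus lay in GrnKO cells, with an interaction of -2.49 ± 0.29 (adjusted p = 4.4e-05) and an edit of 0.06 ± 0.24 in WT (adjusted p = 0.97).

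Cdkn1c encodes p57, an inhibitor of cyclin-dependent kinases. It had 5.30, 4.95, 4.47 and 3.29 CPM in GrnKO TKO, against 64.3, 42.6, 34.9 and 44.2 CPM in GrnKO Rosa26. In WT cells it had 2.08, 3.79, 3.24 and 2.45 CPM in TKO, against 6.77, 6.78, 3.74 and 8.23 CPM in Rosa26. Cdkn1c fell in both genotypes, with changes of -3.36 ± 0.22 in GrnKO and -1.14 ± 0.26 in WT (interaction -2.22 ± 0.34, adjusted p = 0.0011). A pair of genes best known from T cells had the same pattern, although the lymphocyte markers were below 1 CPM. Cd28, a costimulatory receptor, had 17.7, 26.7, 28.4 and 27.2 CPM in GrnKO TKO, against 89.4, 91.3, 97.8 and 85.5 CPM in GrnKO Rosa26. WT TKO had 10.4, 9.32, 10.02 and 9.99 CPM, against 7.39, 10.3, 15.3 and 12.6 CPM in WT Rosa26. GrnKO TKO libraries remained above every WT library, and the interaction was -1.67 ± 0.19 (adjusted p = 4.1e-05). Lat, an adaptor of the T-cell receptor, was at 0.662 to 1.89 CPM in GrnKO TKO, 4.42 to 8.39 in GrnKO Rosa26, 0.329 to 1.24 in WT TKO and 0.439 to 1.54 in WT Rosa26 (interaction -2.10 ± 0.45, adjusted p = 0.0057).

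The other genes among the 12 most negative reached from -1.82 to -1.47. They were Rab15, a GTPase of endosomes, the stress-induced Gadd45a, the fatty acid binding protein Fabp3, the lipid phosphatase Plpp3 and 1190005I06Rik. Gadd45a averaged 10.9 ± 1.03 CPM in GrnKO TKO and 30.2 ± 3.93 in GrnKO Rosa26, and 5.87 ± 1.31 in WT TKO and 5.26 ± 0.849 in WT Rosa26 (SD, n = 4 each). Fabp3 averaged 5.59 ± 0.32 CPM in GrnKO TKO and 12.6 ± 1.27 in GrnKO Rosa26, and 3.83 ± 0.748 in WT TKO and 2.93 ± 0.614 in WT Rosa26. For both, GrnKO Rosa26 libraries lay above every library of the other groups. Mfge8, which bridges dying cells to phagocytes, fell in both genotypes and more in GrnKO. It had 127, 145, 205 and 134 CPM in GrnKO TKO, against 643, 730.1, 734 and 501 CPM in GrnKO Rosa26, and 65.8, 74.6, 70.7 and 77.2 CPM in WT TKO, against 109, 130.1, 108 and 104 CPM in WT Rosa26. Neither genotype's groups overlapped, and the interaction was -1.46 ± 0.16 (adjusted p = 5.2e-05).

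Most of the 12 most positive interactions belonged to genes that were low in GrnKO Rosa26 cells and near the WT level once edited. An exception was ENSMUSG00000120319, which averaged 26.4 ± 7.73 CPM in GrnKO TKO and 5.36 ± 1.89 in GrnKO Rosa26, and 12.6 ± 8.81 in WT TKO and 13.1 ± 9.61 in WT Rosa26 (SD, n = 4 each; interaction 2.34 ± 0.48, adjusted p = 0.011, and 0.083 with no block). Pamr1 encodes a secreted peptidase-domain protein. It had 99.3, 65.96, 84.1 and 60.99 CPM in GrnKO TKO, against 13.9, 12.5, 14.7 and 7.08 CPM in GrnKO Rosa26. WT TKO had 109.7, 93.2, 82.5 and 63.6 CPM, against 142, 82.1, 54.1 and 54.9 CPM in WT Rosa26. GrnKO TKO libraries lay within the WT range while GrnKO Rosa26 lay below every other library. The interaction was 2.57 ± 0.25 (adjusted p = 8.3e-05), and the edit in WT gave 0.13 ± 0.17 (adjusted p = 0.76).

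Eln, the gene of elastin, had 23.7, 25.4, 22.6 and 18.3 CPM in GrnKO TKO, against 3.93, 5.48, 4.54 and 4.13 CPM in GrnKO Rosa26. WT TKO had 31.3, 26.7, 21.2 and 17.7 CPM, against 21.5, 24.6, 15.8 and 13.7 CPM in WT Rosa26. The low GrnKO Rosa26 libraries again stood alone, and the 4 batches lay close, at 1.57 to 1.91 (interaction 1.94 ± 0.17, adjusted p = 2.6e-06). Oprl1, the nociceptin receptor, had 6.62, 6.27, 5.78 and 3.98 CPM in GrnKO TKO, against 1.57, 1.46, 0.769 and 1.03 CPM in GrnKO Rosa26. WT TKO had 8.77, 6.21, 5.90 and 4.36 CPM, against 18.5, 6.85, 3.74 and 2.74 CPM in WT Rosa26. WT Rosa26 of batch 1, the shallowest library, was the highest of all 16. The interaction was 2.32 ± 0.41 (adjusted p = 0.0026), and 1.50 with limma on the authors' normalised values. Ly6a encodes Sca-1, a surface protein of the interferon-responsive Ly6 family, whose near-identical members make its counts uncertain. It had 14.9, 13.2, 11.6 and 6.91 CPM in GrnKO TKO, against 1.04, 0.913, 0.734 and 0.383 CPM in GrnKO Rosa26. WT TKO had 20.3, 35.4, 8.84 and 29.5 CPM, against 5.54, 6.85, 3.15 and 6.58 CPM in WT Rosa26. Ly6a rose in both genotypes and by more in GrnKO (interaction 1.93 ± 0.55, adjusted p = 0.040). That call was lost (adjusted p 0.070 to 0.098) without GrnKO TKO of batch 1, GrnKO Rosa26 of batch 1, 2 or 4, WT TKO of batch 1, or WT Rosa26 of batch 1, 2 or 4, and limma gave 0.99 (adjusted p = 0.13). It was also lost with no block (adjusted p = 0.083), thinned counts (0.11) and no filter (0.14), and without all of batch 1 (0.19) or batch 2 (0.11).

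**Figure D2:**
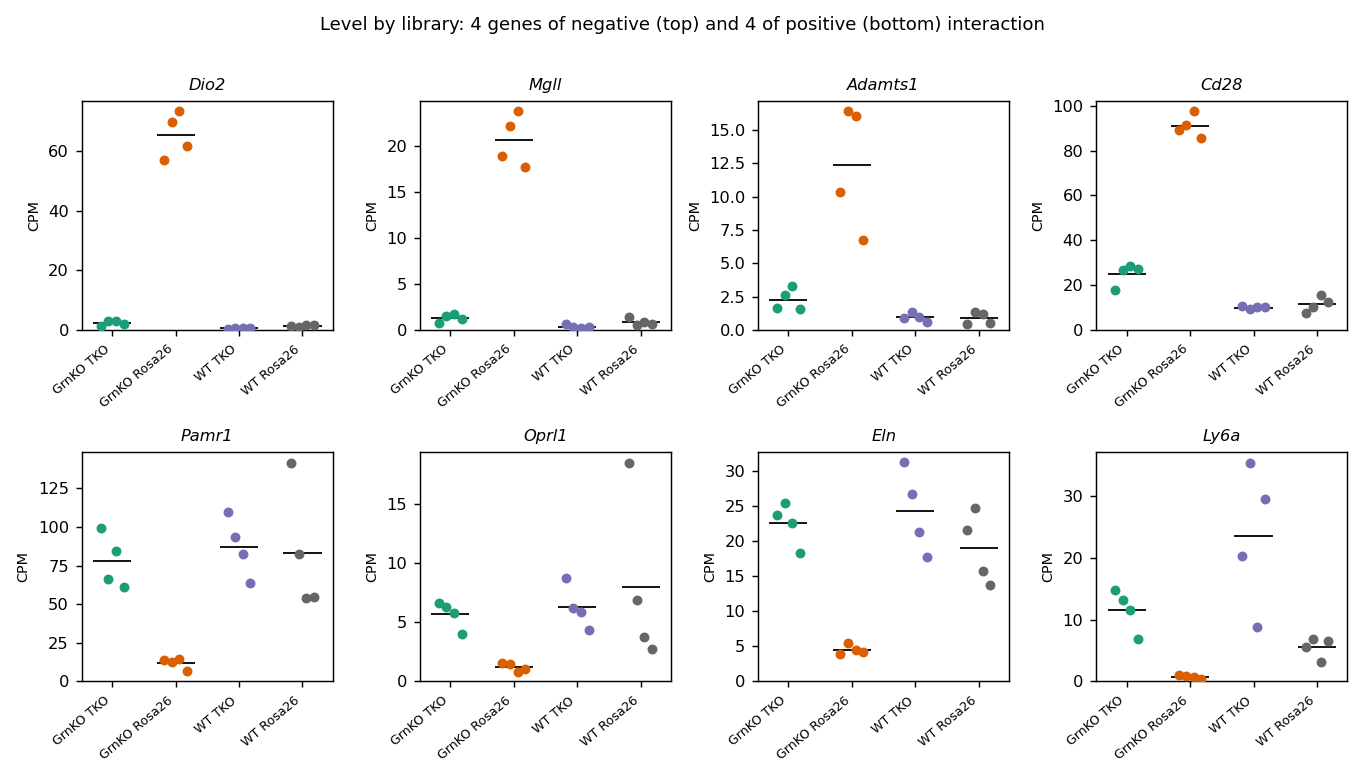
Level in CPM (vertical axes, from 0) in each of the 16 libraries for 4 genes of negative interaction (top) and 4 of positive interaction (bottom); points are libraries in batch order and bars are group means. GrnKO Rosa26 lies above all other libraries for Dio2 (57.2 to 73.4 CPM) and Cd28 (85.5 to 97.8 CPM) and below them for Pamr1 (7.08 to 14.7 CPM) and Eln (3.93 to 5.48 CPM).

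The positive side held many pseudogenes. Biotypes from the GENCODE M21 annotation were matched for 15028 genes. Pseudogenes made up 234 of the 874 matched positive genes (26.8%), 5 of the 1162 matched negative genes (0.430%) and 961 of all matched genes (6.39%). Their median interaction was 0.95, against -0.05 for protein-coding genes. Reads of pseudogenes can be split with their parent genes, so these counts are uncertain. Of the 12 most positive genes, Gm5100, Gm8276, Gm15710, Gm15772 and Rpl35a-ps5 are pseudogenes in that annotation. Gm15710 (1.93 ± 0.53, adjusted p = 0.034) kept its call with 1 library left out in 4 cases (batch 2 of GrnKO TKO or WT TKO, batch 3 of GrnKO Rosa26 or WT Rosa26) and was at adjusted p 0.056 to 0.084 in the rest. Together pseudogenes took 0.743 to 0.904% of counts in GrnKO TKO, 0.564 to 0.633% in GrnKO Rosa26, 0.858 to 0.985% in WT TKO and 0.758 to 1.27% in WT Rosa26. The shallow WT Rosa26 library of batch 1 held the highest share. The part of depth in this pattern was not tested beyond thinning all libraries to the shallowest, which gave 836 positive and 764 negative genes. The pseudogene Gm5100 had 4.08, 3.27, 3.10 and 2.89 CPM in GrnKO TKO, against 0.393, 0.7, 1.05 and 0.619 CPM in GrnKO Rosa26, and 3.45, 4.97, 1.83 and 3.59 CPM in WT TKO, against 11.5, 5.89, 1.35 and 3.68 CPM in WT Rosa26. GrnKO Rosa26 lay below all other libraries, and WT Rosa26 of batch 1 was the highest. The interaction of Gm5100 was 2.71 ± 0.65 (adjusted p = 0.016), and 1.67 with limma on the authors' normalised values.

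**Figure D3:**
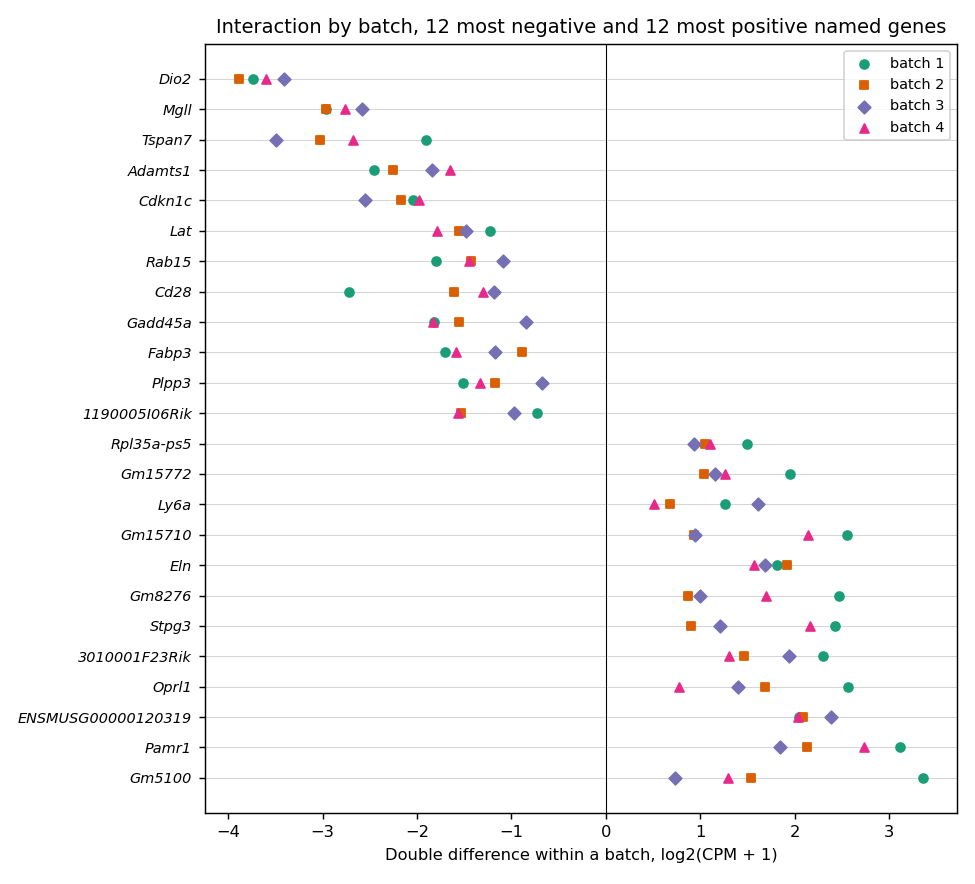
Double difference within each batch on the log2(CPM + 1) scale (horizontal axis) for the 12 most negative and 12 most positive genes named by the rule (rows); symbols mark the 4 batches and the vertical line marks 0. Every point of a gene lies on one side of 0, as the rule required, with Dio2 at -3.89 to -3.41 and Eln at 1.57 to 1.91 as examples of narrow spread and Gm5100 at 0.74 to 3.36 of wide spread.

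Responses of opposite sign were few. Of the 41 genes, 27 fell with editing in GrnKO and rose in WT cells, and 14 did the reverse. All 41 had one sign of the double difference in all 4 batches. The number moved with the setting and was 153 with the genotype-by-batch replicate block, 9 with no block, 74 with no filter on low counts, 67 with DESeq2 and 20 with thinned counts. With 1 library left out it was 12 to 155, the highest without WT Rosa26 of batch 3, and with a batch left out 2 to 80. The libraries behind the main examples are therefore given in full.

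Stac2, an adaptor of voltage-gated calcium channels, had 8.83, 10.6, 8.94 and 9.35 CPM in GrnKO TKO, against 11.4, 14.3, 13.3 and 14.4 CPM in GrnKO Rosa26. WT TKO had 5.26, 5.22, 4.30 and 4.54 CPM, against 2.46, 2.67, 3.20 and 3.13 CPM in WT Rosa26. The groups did not overlap in either genotype. Editing gave -0.50 ± 0.12 in GrnKO (adjusted p = 0.0036) and 0.73 ± 0.15 in WT (adjusted p = 0.0083), with an interaction of -1.23 ± 0.19 (adjusted p = 0.00068). Tmem140, a membrane protein, had 138, 165, 126 and 146 CPM in GrnKO TKO, against 204, 195, 185 and 203 CPM in GrnKO Rosa26. WT TKO had 115, 118, 112 and 141 CPM, against 73.9, 88.99, 81.1 and 87.8 CPM in WT Rosa26. Again no library overlapped within a genotype, and the genotypes moved towards each other with editing (interaction -1.003 ± 0.11, adjusted p = 3.2e-05). Tnip3, an A20-binding inhibitor of NF-kB signalling, moved the other way. It had 16.6, 16.5, 19.98 and 16.7 CPM in GrnKO TKO, against 7.86, 10.04, 11.5 and 8.85 CPM in GrnKO Rosa26, and 19.2, 21.7, 21.8 and 15.9 CPM in WT TKO, against 27.7, 29.4, 25.7 and 24.7 CPM in WT Rosa26. It rose in GrnKO by 0.87 ± 0.11 and gave -0.45 ± 0.11 in WT (adjusted p = 0.021), with an interaction of 1.32 ± 0.15 (adjusted p = 3.6e-05).

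Nr4a1, the immediate early nuclear receptor Nur77, had 60.7, 46.2, 47.3 and 37.8 CPM in GrnKO TKO, against 39.3, 33.5, 30.1 and 24.8 CPM in GrnKO Rosa26. WT TKO had 65.8, 68.4, 64.9 and 44.04 CPM, against 95.4, 88.99, 72.1 and 65.8 CPM in WT Rosa26. The groups overlapped slightly in both genotypes, but every batch had the same order (interaction 1.00 ± 0.12, adjusted p = 5.5e-05). Nanos1, an RNA-binding repressor of translation, had 16.00, 16.8, 18.4 and 15.9 CPM in GrnKO TKO, against 10.7, 10.3, 11.9 and 10.9 CPM in GrnKO Rosa26. WT TKO had 14.3, 9.94, 19.5 and 9.99 CPM, against 18.5, 17.8, 32.4 and 13.2 CPM in WT Rosa26. Its GrnKO libraries did not overlap while its WT libraries did (interaction 1.22 ± 0.22, adjusted p = 0.0023). The tRNA-modifying enzyme gene Cdkal1 had an interaction of 1.02 ± 0.18, and P2ry1, an ADP receptor, one of -0.99 ± 0.21. Plin3, a coat protein of lipid droplets, lay at 55.2 to 75.9 CPM in GrnKO TKO, 89.4 to 94.4 in GrnKO Rosa26, 49.7 to 63.6 in WT TKO and 30.8 to 49.6 in WT Rosa26. The double difference of Plin3 was -0.87 ± 0.14 (adjusted p = 0.00096). Hilpda, an inhibitor of lipolysis at droplets, belonged to the same class, with 161 ± 17.5 CPM in GrnKO TKO and 207 ± 33.1 in GrnKO Rosa26, and 123 ± 13.7 in WT TKO and 80.5 ± 14.9 in WT Rosa26 (SD, n = 4 each; interaction -0.96 ± 0.13, adjusted p = 0.00022).

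**Figure D4:**
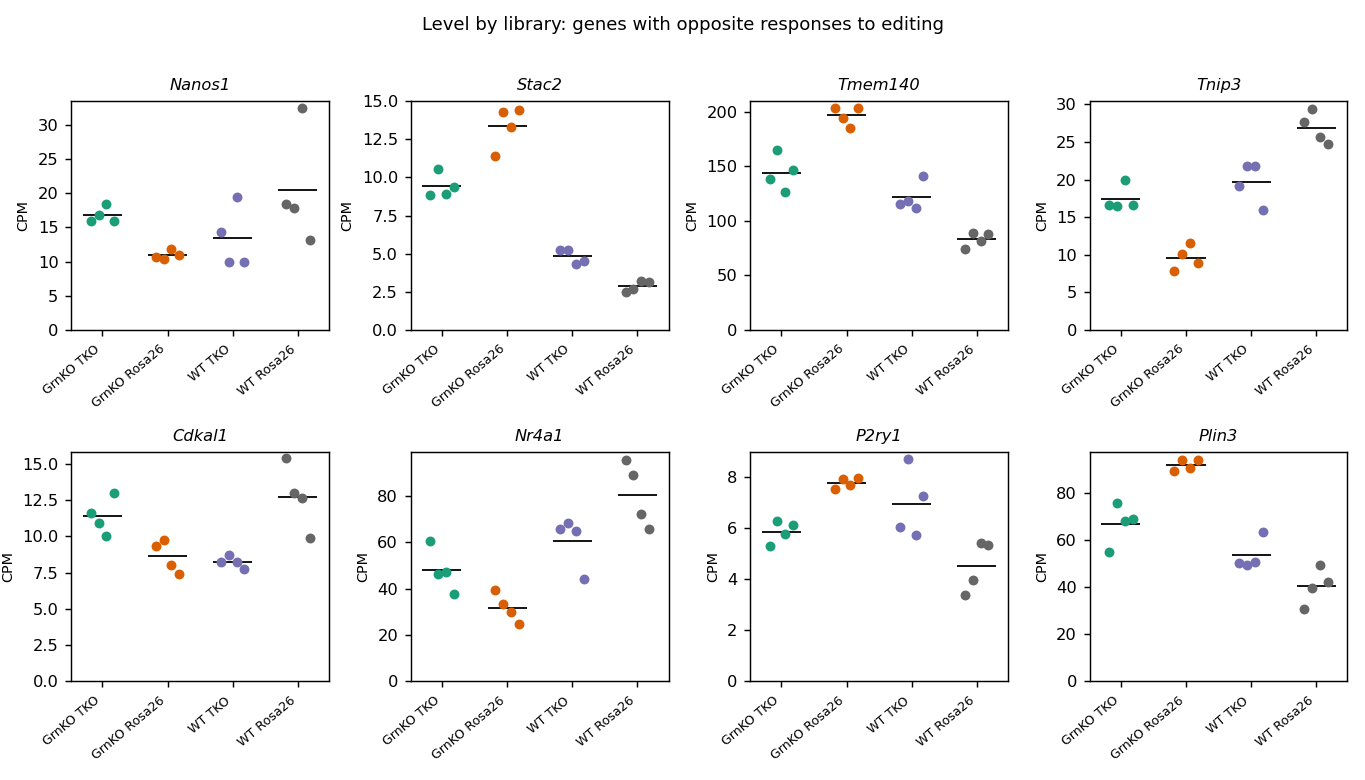
Level in CPM (vertical axes, from 0) in each of the 16 libraries for the 8 genes of opposite sign named by the rule; points are libraries in batch order and bars are group means. Stac2, Tmem140, P2ry1 and Plin3 are lower in GrnKO TKO than in GrnKO Rosa26 and higher in WT TKO than in WT Rosa26 on average, and the other genes show the reverse; Stac2 spans 8.83 to 10.6 CPM in GrnKO TKO and 11.4 to 14.4 CPM in GrnKO Rosa26.

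A further set passed the test of editing in WT cells and missed it in GrnKO cells. Amz1, a metalloprotease, had 27.6, 22.8, 28.4 and 23.99 CPM in GrnKO TKO, against 25.7, 24.9, 27.3 and 22.7 CPM in GrnKO Rosa26. WT TKO had 23.6, 22.4, 28.3 and 23.6 CPM, against 6.62, 11.6, 12.6 and 10.97 CPM in WT Rosa26. WT Rosa26 was the low group, while the other 3 overlapped. The edit gave 0.03 ± 0.11 in GrnKO (adjusted p = 0.88) and 1.19 ± 0.12 in WT (adjusted p = 1.5e-05), an interaction of -1.16 ± 0.17 (adjusted p = 0.00037). Ier3, an immediate early gene of cell survival, had the same form, at 52.6 to 59.4 CPM in GrnKO TKO, 53.6 to 69.97 in GrnKO Rosa26, 54.8 to 60.9 in WT TKO and 26.2 to 41.01 in WT Rosa26 (interaction -0.96 ± 0.14, adjusted p = 0.00033). Hk2, the hexokinase that starts glycolysis, lay at 72.6 to 78.9 CPM in GrnKO TKO, 82.2 to 94.4 in GrnKO Rosa26, 87.7 to 104 in WT TKO and 46.2 to 72.1 in WT Rosa26 (interaction -0.90 ± 0.13, adjusted p = 0.00035). The GrnKO groups of Hk2 did not overlap, with an edit of -0.24 ± 0.09 that just missed the threshold (adjusted p = 0.051). The voltage-gated proton channel Hvcn1 gave -1.21 ± 0.23 and the unannotated ENSMUSG00000120878 -1.12 ± 0.14. Positive interactions from a fall in WT cells were seen for Nes, which encodes nestin (1.15 ± 0.23), for Fgf13 (1.56 ± 0.32) and for Sncaip (1.52 ± 0.34). Nes had 36.4, 42.9, 46.8 and 44.7 CPM in GrnKO TKO, against 32.5, 45.6, 41.9 and 35.4 CPM in GrnKO Rosa26, and 25.2, 17.4, 25.4 and 14.98 CPM in WT TKO, against 52.3, 32.9, 45.1 and 36.8 CPM in WT Rosa26. Its WT TKO libraries were the lowest 4 of the 16.

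In 6 genes the change had the same sign and was larger in WT cells. Mt2, a metallothionein that binds metals, rose in both: it had 226, 195, 237 and 199 CPM in GrnKO TKO, against 182, 134, 161 and 174 CPM in GrnKO Rosa26, and 252, 267, 301 and 286 CPM in WT TKO, against 128, 144, 162 and 154 CPM in WT Rosa26. The edit gave 0.40 ± 0.09 in GrnKO and 0.91 ± 0.09 in WT (interaction -0.51 ± 0.13, adjusted p = 0.012). Fgl2, a coagulant membrane protein of macrophages, gave 0.38 ± 0.11 in GrnKO and 1.02 ± 0.12 in WT, and Chchd10, a mitochondrial protein, 0.41 ± 0.11 in GrnKO and 1.03 ± 0.12 in WT. Psat1, an enzyme of serine synthesis, fell in both genotypes, with changes of -0.38 ± 0.11 in GrnKO and -0.89 ± 0.11 in WT. The interactions of Fgl2 and Chchd10 were -0.64 ± 0.17 (adjusted p = 0.017) and -0.62 ± 0.16 (adjusted p = 0.016). Calls were lost with 1 library left out for Fgl2 (-0.55, adjusted p = 0.062 without GrnKO Rosa26 of batch 2) and Psat1 (interaction 0.51 ± 0.16, adjusted p = 0.038, and 0.053 to 0.10 without any of 11 libraries). Psat1 kept its call without GrnKO TKO of batch 1 or 3, WT TKO of batch 3, or WT Rosa26 of batch 3 or 4.

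Lysosomal genes were called on the negative side only. Of 51 tested hydrolases 15 were negative (29.4%) and 0 positive, against 7.63% negative and 5.8% positive of all genes tested, with a median of -0.24. Of 34 lysosomal membrane proteins and transporters 15 were negative (44.1%) and 0 positive (median -0.37), and of 18 subunits of the V-ATPase, the proton pump of the lysosome, 8 were negative (44.4%) and 0 positive (median -0.31). The median over all genes tested was -0.01. The hydrolase count lay between 8 and 25 in the other settings and between 2 and 20 with a library or batch left out. The membrane count lay between 10 and 20 and between 4 and 19, and the V-ATPase count between 3 and 11 and between 0 and 10, with the lowest of each without batch 4. In GrnKO cells editing raised 6 and lowered 29 hydrolases, 1 and 20 membrane proteins and 0 and 15 V-ATPase subunits. In WT cells it raised 4 and lowered 3 hydrolases, 3 and 0 membrane proteins and 0 and 1 V-ATPase subunits. Over all genes tested editing raised 14.8% and lowered 17.8% in GrnKO cells, and raised 2.18% and lowered 1.16% in WT cells.

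Naglu, which degrades heparan sulfate, had 66.2, 82.5, 73.6 and 77.3 CPM in GrnKO TKO, against 122, 131, 126 and 129.7 CPM in GrnKO Rosa26. WT TKO had 50.99, 54.1, 56.01 and 68.1 CPM, against 49.2, 49.3, 63.1 and 54.3 CPM in WT Rosa26. GrnKO Rosa26 lay above all other libraries and the WT groups overlapped (interaction -0.85 ± 0.12, adjusted p = 0.00037). The sulfatases Sgsh (-0.76 ± 0.13, adjusted p = 0.00096) and Galns (-0.83 ± 0.16, adjusted p = 0.0026) had the next smallest p-values. Slc36a1, a lysosomal amino acid transporter that signals to mTORC1, had 60.7, 79.2, 68.3 and 73.2 CPM in GrnKO TKO, against 104, 103, 101 and 115 CPM in GrnKO Rosa26. WT TKO had 54.8, 58.4, 56.6 and 72.6 CPM, against 40.01, 41.1, 54.1 and 52.1 CPM in WT Rosa26. It changed in opposite directions, by -0.59 ± 0.09 in GrnKO and 0.37 ± 0.09 in WT cells (adjusted p = 0.036), with an interaction of -0.96 ± 0.13 (adjusted p = 0.00022). The nucleoside transporter Slc29a3 gave -0.84 ± 0.11 (adjusted p = 0.00012) and the lysosomal channel Mcoln2 -0.89 ± 0.12 (adjusted p = 0.00024). Among V-ATPase subunits, Atp6v1b2 averaged 402 ± 23.1 CPM in GrnKO TKO and 601 ± 22.2 in GrnKO Rosa26, and 359 ± 22.3 in WT TKO and 374 ± 28.1 in WT Rosa26 (SD, n = 4 each). Its interaction was -0.52 ± 0.09 (adjusted p = 0.0011), and those of Atp6v1g1 and Tcirg1 were -0.66 ± 0.13 and -0.54 ± 0.12.

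The CLEAR motif through which MiT/TFE factors act was looked for in the promoters of these genes. RefSeq windows on GRCm38.p6, from 250 bases before to 50 after the start, matched 129 of the 158 tested genes of the lysosome, Rag GTPase and autophagy lists, as 149 windows. TCACGTGA, which reads the same on both strands and contains the E-box CACGTG, was in 11 of the 149 (7.38%), against 1.81% of the 13342 windows of tested genes (10421 of 15385 matched) and 0.974% of all 32851 windows. CACGTG was in 33 (22.1%), against 9.82% of windows of tested genes and 7.15% of all. Within these lists TCACGTGA was in 5 of 48 windows of genes with a negative interaction (10.4%) and in 6 of 101 windows of genes not called (5.94%). CACGTG had like shares in both, with 11 of the 48 (22.9%) and 22 of the 101 (21.8%). Those counts describe letters in a window and were not tested. Printed are the 3 windows with this motif whose genes had the smallest interaction p. Capitals mark TCACGTGA, which begins 4 bases before the start site in Slc36a1 (chr11:55204090-55204389, plus strand), 228 bases before it for the first of 2 copies in Gla (chrX:134600956-134601255, minus strand) and 6 bases after it in Clcn7 (chr17:25133141-25133440, plus strand).
Slc36a1: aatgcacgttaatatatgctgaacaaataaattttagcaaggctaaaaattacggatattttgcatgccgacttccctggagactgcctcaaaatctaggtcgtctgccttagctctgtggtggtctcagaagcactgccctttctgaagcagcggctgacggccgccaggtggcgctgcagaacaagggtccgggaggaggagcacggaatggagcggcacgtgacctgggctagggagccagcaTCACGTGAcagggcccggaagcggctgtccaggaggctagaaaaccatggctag
Gla: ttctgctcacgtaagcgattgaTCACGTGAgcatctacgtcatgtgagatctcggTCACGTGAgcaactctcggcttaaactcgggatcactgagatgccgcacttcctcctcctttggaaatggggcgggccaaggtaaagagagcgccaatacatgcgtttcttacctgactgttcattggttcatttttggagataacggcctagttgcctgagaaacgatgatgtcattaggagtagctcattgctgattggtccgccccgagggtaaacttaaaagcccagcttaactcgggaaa
Clcn7: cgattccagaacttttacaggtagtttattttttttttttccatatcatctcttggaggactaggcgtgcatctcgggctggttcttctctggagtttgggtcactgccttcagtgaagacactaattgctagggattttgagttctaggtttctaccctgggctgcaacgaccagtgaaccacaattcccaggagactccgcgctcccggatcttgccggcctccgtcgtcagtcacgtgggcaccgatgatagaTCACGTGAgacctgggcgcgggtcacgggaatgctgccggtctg
Gla and Clcn7 were chosen after their values were seen. Gla encodes alpha-galactosidase A and had an interaction of -0.48 ± 0.10 (adjusted p = 0.0049). Clcn7 encodes a chloride-proton exchanger of lysosomes and had -0.43 ± 0.10 (adjusted p = 0.011).

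Among Rag GTPase and folliculin genes, which relay lysosomal nutrients to mTORC1, 3 of 19 were negative (15.8%, against 7.63% of all genes tested) and 0 positive (median -0.27). The negative count lay between 2 and 8 in the other settings, and was 7 without WT Rosa26 of batch 3 and 1 without batch 1. Rragd, a Rag GTPase and known MiT/TFE target, had 71.7, 65.96, 57.8 and 73.2 CPM in GrnKO TKO, against 67.9, 69.97, 59.4 and 64.9 CPM in GrnKO Rosa26. WT TKO had 51.5, 49.7, 48.3 and 49.9 CPM, against 30.8, 28.1, 33.3 and 29.1 CPM in WT Rosa26. The GrnKO groups overlapped, whereas every WT TKO library lay above every WT Rosa26 library. The edit thus raised Rragd in WT cells by 0.71 ± 0.09 (adjusted p = 9.0e-05) and gave 0.03 ± 0.08 in GrnKO (adjusted p = 0.79), an interaction of -0.68 ± 0.12 (adjusted p = 0.0018). Fnip2, a partner of folliculin, gave -0.64 ± 0.14 (adjusted p = 0.0057). Rragc gave -0.33 ± 0.09 (adjusted p = 0.025), a call lost without GrnKO TKO of batch 4, GrnKO Rosa26 of batch 2 or 3, WT TKO of batch 2, or WT Rosa26 of batch 4 (adjusted p 0.051 to 0.063). It was also lost with no block (adjusted p = 0.060), with thinned counts (0.16) and without all of batch 1, 2 or 4 (0.12 to 0.17). Of 24 textbook MiT/TFE targets, a list that shares genes with the lysosomal ones, 8 were negative (33.3%) and 0 positive (median -0.32).

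Autophagy genes were on the same side, with 8 of 36 negative (22.2%, against 7.63% of all genes tested) and 0 positive (median -0.21). That count lay between 6 and 13 in the other settings and between 2 and 14 with a library or batch left out. Gabarapl1, a member of the ATG8 family that coats autophagosomes, had 138, 168, 142 and 150.5 CPM in GrnKO TKO, against 229, 243, 234 and 262 CPM in GrnKO Rosa26. WT TKO had 126, 137, 136 and 149.8 CPM, against 92.3, 109.5, 122 and 109.7 CPM in WT Rosa26. The groups did not overlap in either genotype, and the change was -0.70 ± 0.08 in GrnKO and 0.34 ± 0.08 in WT cells (adjusted p = 0.017). The interaction was -1.03 ± 0.11 (adjusted p = 1.5e-05), the smallest p of the autophagy list. Ulk1, the kinase that starts autophagy, gave -0.89 ± 0.16 (adjusted p = 0.0024) and Tecpr1, which acts at autophagosome fusion, -0.63 ± 0.13 (adjusted p = 0.0041).

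**Figure D5:**
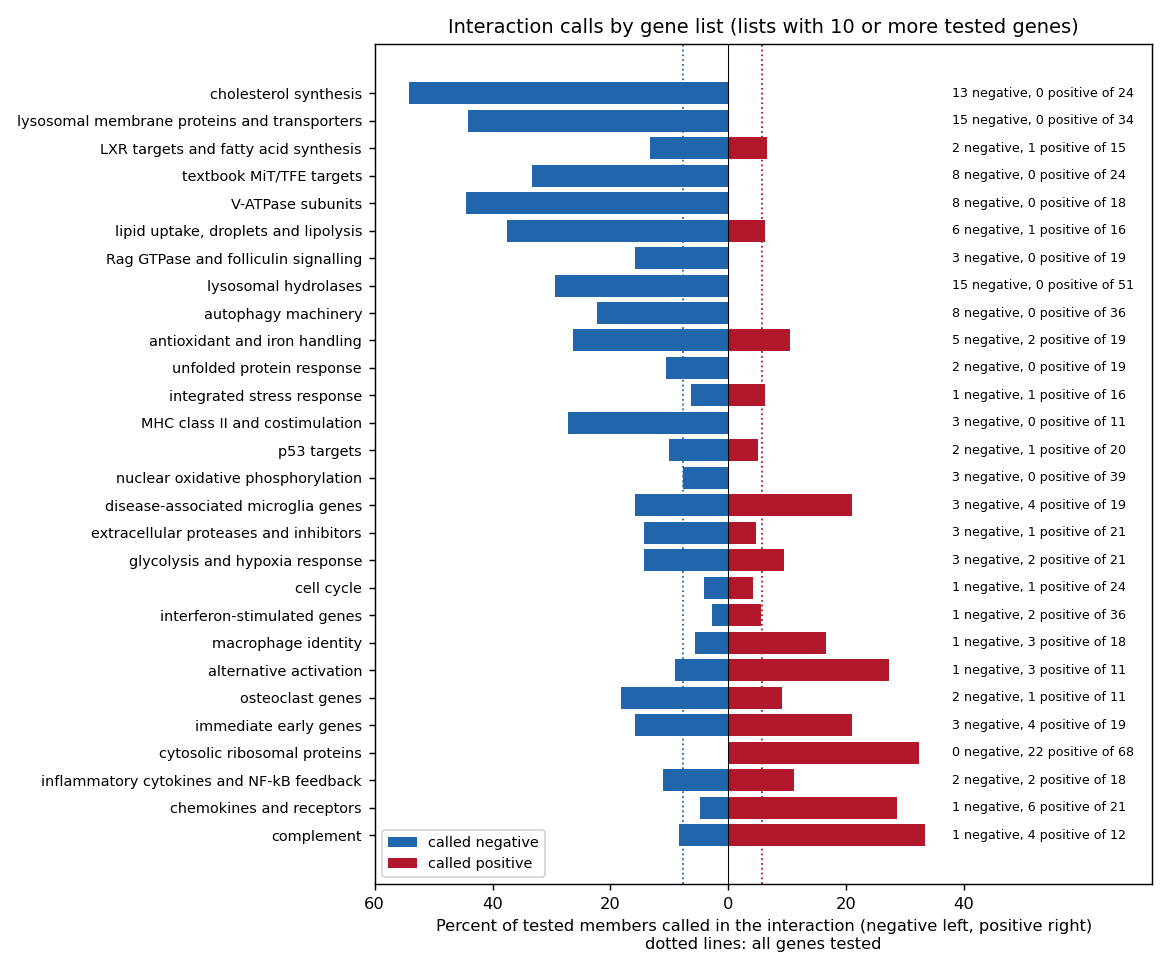
Percentage of tested members called negative (bars to the left) and positive (bars to the right) in the interaction for each gene list of 10 or more tested genes, ordered by median interaction; dotted lines mark the 7.63% negative and 5.8% positive of all genes tested. Cholesterol synthesis (13 negative of 24) and the lysosomal lists lie on the negative side, and ribosomal proteins (22 positive of 68), chemokines (6 of 21) and complement (4 of 12) on the positive side.

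Cholesterol synthesis had the most negative median of the lists plotted, at -0.48. Of its 24 tested genes 13 were negative (54.2%, against 7.63% of all genes tested) and 0 positive. The negative count was 10 to 19 in the other settings and 5 to 16 with a library or batch left out. Editing in GrnKO cells lowered 20 and raised 0 of the 24 genes, against 17.8% lowered and 14.8% raised of all genes tested. In WT cells neither direction had a call, against 3.35% called of all. Hmgcs1, which makes the precursor of mevalonate, had 281, 261, 263 and 281 CPM in GrnKO TKO, against 429, 487, 454 and 413 CPM in GrnKO Rosa26. WT TKO had 225, 236, 265 and 213 CPM, against 185, 233, 275 and 197 CPM in WT Rosa26. GrnKO Rosa26 lay above all other libraries, and the WT groups overlapped (interaction -0.79 ± 0.13, adjusted p = 0.00079). Cyp51, a demethylase of the sterol branch, gave -0.70 ± 0.12 (adjusted p = 0.00096), and Mvd, of the mevalonate branch, -0.71 ± 0.12 (adjusted p = 0.0014).

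Of 16 genes of lipid uptake, droplets and lipolysis 6 were negative (37.5%, against 7.63% of all genes tested) and 1 positive (median -0.27). Fabp4, the fatty acid binding protein of adipocytes and macrophages, fell in both genotypes. It had 13.8, 22.8, 17.9 and 16.7 CPM in GrnKO TKO, against 75.1, 100.4, 87.4 and 88.5 CPM in GrnKO Rosa26, and 8.22, 9.94, 11.8 and 6.81 CPM in WT TKO, against 13.2, 19.9, 25.2 and 12.6 CPM in WT Rosa26. The GrnKO groups stood far apart and every WT TKO library lay below every WT Rosa26 library (interaction -1.37 ± 0.19, adjusted p = 0.00034). LXR targets and fatty acid synthesis had 2 of 15 negative and 1 positive, with Abcg1, a cholesterol exporter, at -0.73 ± 0.18 (adjusted p = 0.013). Of 19 genes of antioxidant defence and iron handling 5 were negative and 2 positive. The iron exporter Slc40a1 averaged 43.9 ± 12.7 CPM in GrnKO TKO and 99.8 ± 13.6 in GrnKO Rosa26, and 25.4 ± 5.25 in WT TKO and 30.2 ± 4.58 in WT Rosa26 (SD, n = 4 each; interaction -0.95 ± 0.15, adjusted p = 0.00074). The iron importer Slc11a2 gave -0.91 ± 0.15, and the transferrin receptor gene Tfrc -0.53 ± 0.13. All mice carry a knock-in at the transferrin receptor, and how the tags of Tfrc read it was not tested.

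Several immune lists had more positive than negative calls, while over all genes tested 5.8% were positive and 7.63% negative. Complement had 4 of 12 positive (33.3%) and 1 negative (median 0.38). Chemokines and their receptors had 6 of 21 positive (28.6%) and 1 negative (0.37), and alternative activation 3 of 11 positive (27.3%) and 1 negative (0.14). The positive counts lay between 3 and 6, 2 and 8, and 2 and 4 in the other settings, and reached down to 1, 1 and 2 with a library or batch left out. Editing raised genes of these lists in both genotypes. It raised 7 complement genes in GrnKO and 5 in WT, 13 chemokine genes in GrnKO and 8 in WT, and 8 alternative activation genes in GrnKO and 6 in WT. It lowered 1 and 0 complement, 4 and 2 chemokine, and 1 and 1 alternative activation genes. Over all genes tested it raised 14.8% and lowered 17.8% in GrnKO, and raised 2.18% and lowered 1.16% in WT. C1qa, a chain of the first complement component, had 772, 792, 736 and 732 CPM in GrnKO TKO, against 311, 395, 325 and 324 CPM in GrnKO Rosa26. WT TKO had 877, 994, 943 and 999 CPM, against 585, 671, 676 and 658 CPM in WT Rosa26. No groups of a genotype overlapped, and the rise was 1.17 ± 0.07 in GrnKO and 0.56 ± 0.07 in WT (interaction 0.61 ± 0.10, adjusted p = 0.00085). Ccl5, an inflammatory chemokine, averaged 9.29 ± 2.35 CPM in GrnKO TKO and 2.45 ± 0.462 in GrnKO Rosa26, and 11.2 ± 3.18 in WT TKO and 7.33 ± 1.92 in WT Rosa26 (SD, n = 4 each). Its interaction was 1.33 ± 0.31 (adjusted p = 0.0097). Against this direction, the chemokine receptor gene Cxcr4 gave -0.90 ± 0.14 (adjusted p = 0.00082) and the complement protease gene C1ra -0.86 ± 0.17 (adjusted p = 0.0036).

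Folr2, a folate receptor of tissue macrophages, shared with Ifi27l2a the smallest adjusted p among the list genes named here. It had 529.6, 495, 578 and 488 CPM in GrnKO TKO, against 261, 262, 318 and 245 CPM in GrnKO Rosa26. WT TKO had 466, 429, 519 and 422 CPM, against 554, 575, 586 and 472 CPM in WT Rosa26. GrnKO Rosa26 was alone at the low end, and the WT groups overlapped. Editing raised it by 0.95 ± 0.07 in GrnKO and gave -0.25 ± 0.07 in WT (adjusted p = 0.039), an interaction of 1.20 ± 0.09 (adjusted p = 6.0e-07). Arg1, the arginase of alternatively activated macrophages, rose in GrnKO cells yet stayed below WT. It had 6.07, 5.61, 5.21 and 4.47 CPM in GrnKO TKO, against 2.36, 2.80, 2.34 and 2.18 CPM in GrnKO Rosa26, and 9.54 to 15.9 CPM in WT TKO and 10.97 to 14.9 in WT Rosa26 (interaction 1.13 ± 0.19, adjusted p = 0.00096). Il4ra, the receptor chain for interleukin 4, was negative at -0.68 ± 0.11 (adjusted p = 0.00096) with changes of -0.29 ± 0.08 in GrnKO and 0.38 ± 0.08 in WT.

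Of 36 interferon-stimulated genes 2 were positive (5.56%, near the 5.8% of all genes tested) and 1 negative (2.78%, against 7.63%). Ifi27l2a, which has close paralogues that make its counts uncertain, had 303, 317, 279 and 232 CPM in GrnKO TKO, against 92.9, 88.2, 80.4 and 58.98 CPM in GrnKO Rosa26. WT TKO had 313, 249, 277 and 236 CPM, against 231, 212, 194 and 165 CPM in WT Rosa26. It rose in both genotypes and more in GrnKO (interaction 1.40 ± 0.11, adjusted p = 6.0e-07). Inflammatory cytokines and NF-kB feedback had 2 of 18 positive and 2 negative (11.1% each, against 5.8% and 7.63% of all genes tested). Among them were Nlrp3, the inflammasome sensor (0.84 ± 0.17, adjusted p = 0.0041), and Il18 (-0.52 ± 0.13, adjusted p = 0.013). MHC class II and costimulation had 3 of 11 negative (27.3%) and 0 positive. These were Cd28, the antigen-loading factor H2-DMb1 (-0.86 ± 0.16) and Cd274, the inhibitory ligand PD-L1. Cd274 had 7.72, 6.27, 9.46 and 8.13 CPM in GrnKO TKO, against 17.2, 18.9, 22.4 and 18.9 CPM in GrnKO Rosa26. In WT cells it lay at 7.46 to 8.84 CPM with the TKO edit and 6.58 to 9.01 with Rosa26, overlapping each other and GrnKO TKO (interaction -1.45 ± 0.16, adjusted p = 3.2e-05).

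Macrophage identity genes had 3 of 18 positive (16.7%, against 5.8% of all genes tested) and 1 negative (5.56%, against 7.63%). The positive count was 1 without batch 1. Itgam, the CD11b integrin, averaged 522 ± 63.7 CPM in GrnKO TKO and 213 ± 20.7 in GrnKO Rosa26, and 812 ± 88.5 in WT TKO and 598 ± 134 in WT Rosa26 (SD, n = 4 each; interaction 0.82 ± 0.16, adjusted p = 0.0045). Adgre1, the F4/80 antigen, gave 0.64 ± 0.14 (adjusted p = 0.0054), and Mertk, a receptor for dying cells, -0.78 ± 0.15 (adjusted p = 0.0025). Among disease-associated microglia genes 4 of 19 were positive (21.1%, against 5.8% of all genes tested) and 3 negative (15.8%, against 7.63%). The positive count lay between 1 and 6 in the other settings and was 1 without GrnKO TKO of batch 4, and the negative count lay between 1 and 8 and was 0 without batch 4. Igf1, a growth factor, had 447, 429, 426 and 447 CPM in GrnKO TKO, against 282, 304, 294 and 295 CPM in GrnKO Rosa26. The WT groups overlapped at 390.5 to 483 CPM in TKO and 422 to 539 CPM in Rosa26 (interaction 0.69 ± 0.10, adjusted p = 0.00049). Cd9, a tetraspanin, was negative (-0.64 ± 0.15, adjusted p = 0.0095). Immediate early genes were split, with 4 of 19 positive (21.1%) and 3 negative (15.8%), and the positive count was 1 with no block. The positive Fos gave 0.75 ± 0.11 (adjusted p = 0.00033), beside Nr4a1 at 1.00 ± 0.12 and the negative Ier3 at -0.96 ± 0.14. Osteoclast genes had 2 of 11 negative (18.2%) and 1 positive (9.09%). The negative count was 0 without batch 4 and the positive count 0 without batch 2. Ctsk, the collagen-cutting cathepsin, was low throughout, at 0.883 to 1.42 CPM in GrnKO TKO, 2.54 to 4.19 in GrnKO Rosa26, 0.908 to 1.77 in WT TKO and 0.769 to 1.37 in WT Rosa26 (interaction -1.67 ± 0.35, adjusted p = 0.0050).

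Cytosolic ribosomal protein genes were called on the positive side only. Of 68 tested 22 were positive (32.4%, against 5.8% of all genes tested) and 0 negative. Their median was 0.24, and 60 lay above 0. Editing raised 44 and lowered 1 in GrnKO cells, against 14.8% raised and 17.8% lowered of all genes tested. It gave no call in either direction in WT cells, against 3.35% called of all. Their share of all counts was 6.44 to 7.31% in GrnKO TKO, 5.58 to 6.21% in GrnKO Rosa26, 7.55 to 8.36% in WT TKO and 7.40 to 8.47% in WT Rosa26. GrnKO Rosa26 did not overlap with any other group, and GrnKO TKO stayed below WT TKO. Rpl10 averaged 1069.6 ± 207 CPM in GrnKO TKO and 705 ± 107 in GrnKO Rosa26, and 1430.02 ± 166 in WT TKO and 1588 ± 289.99 in WT Rosa26 (SD, n = 4 each; interaction 0.75 ± 0.13, adjusted p = 0.0018). Rpl26 gave 0.60 ± 0.12 (adjusted p = 0.0034). These genes have many processed copies, so single counts are uncertain, and the positive count lay between 4 and 30 in the other settings and between 2 and 33 with a library or batch left out.

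The other lists of metabolism and stress varied in their share of calls. Over all genes tested 7.63% were negative and 5.8% positive. Nuclear genes of oxidative phosphorylation had 3 of 39 negative (7.69%, near that share) and 0 positive (median -0.08). Editing nevertheless lowered 21 of the 39 in GrnKO cells (against 17.8% of all genes tested) and gave no call in WT cells (against 3.35%). The difference between genotypes was called for Ndufb3 (-0.60 ± 0.12), Ndufa1 (-0.48 ± 0.10) and Uqcrc1 only. The call of Uqcrc1 (adjusted p = 0.0498) held without GrnKO TKO of batch 1 or 2, GrnKO Rosa26 of batch 3, WT TKO of batch 1, or WT Rosa26 of batch 3, and was lost without any of the other libraries (adjusted p 0.061 to 0.12). It was also lost with RLE scaling (adjusted p = 0.054), a mean of 5 CPM (0.064), thinned counts (0.065) and no block (0.12). Leaving out all of batch 1, 2 or 4 gave 0.13 to 0.24. Cell cycle genes had 1 of 24 called in each direction (4.17%) and a median of 0.00. Their median change with editing was -0.33 in GrnKO and -0.32 in WT cells. Glycolysis and hypoxia response had 3 of 21 negative (14.3%) and 2 positive, the unfolded protein response 2 of 19 negative and 0 positive, the integrated stress response 1 of 16 in each direction, and p53 targets 2 of 20 negative and 1 positive. Extracellular proteases and their inhibitors had 3 of 21 negative (14.3%) and 1 positive (4.76%), with Adamts1 as the most negative.

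Some genes answered the edit strongly and with the same sign in both genotypes. Of 29 genes that changed at least 2-fold with the same sign in each, 7 were called in the interaction. The 5 named below had the smallest absolute interaction of these genes, so their values near 0 follow from that choice. F13a1, the catalytic subunit of coagulation factor XIII, had 22.6, 22.4, 12.6 and 21.6 CPM in GrnKO TKO, against 0.214, 0.608, 0.315 and 0.354 CPM in GrnKO Rosa26. WT TKO had 37.8, 55.9, 53.7 and 63.6 CPM, against 1.38, 0.411, 1.13 and 0.768 CPM in WT Rosa26. The rise was 5.69 ± 0.29 in GrnKO and 5.89 ± 0.29 in WT. Its interaction of -0.20 ± 0.54 (adjusted p = 0.84) had a 95% interval of -1.36 to 0.96, which reaches past a 2-fold difference. With limma on the authors' normalised values F13a1 was called, at -0.96 (adjusted p = 0.029). The lectin Mgl2 gave 0.12 ± 0.25 (95% interval -0.41 to 0.65), the Fc receptor-like gene Fcrls -0.12 ± 0.20 (-0.54 to 0.29), Apoc2, an activator of lipoprotein lipase, -0.17 ± 0.24 (-0.68 to 0.34), and Plxdc2 -0.19 ± 0.30 (-0.82 to 0.44). Intervals that cross 0 do not show that the responses were equal.

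The targeted genes were read last. Tags at the 3′ end also count transcripts of edited alleles, so their levels do not check the edit. Mitf had 177, 162, 158 and 187 CPM in GrnKO TKO, against 154, 152, 133 and 139 CPM in GrnKO Rosa26. WT TKO had 175, 162, 171 and 132 CPM, against 200.05, 178, 216 and 165 CPM in WT Rosa26. Its interaction was 0.49 ± 0.13 (adjusted p = 0.019). The call was lost without GrnKO TKO of batch 4 (0.40, adjusted p = 0.050), without WT TKO of batch 4 (0.42, adjusted p = 0.060) and with limma (0.38, adjusted p = 0.068). It was also lost with no block (adjusted p = 0.051) and without all of batch 1 (0.10) or batch 4 (0.11). Tfe3 fell in both genotypes, with changes of -0.51 ± 0.17 in GrnKO and -0.90 ± 0.17 in WT, and its interaction of 0.39 ± 0.24 was not called (adjusted p = 0.30). It was called with the genotype-by-batch replicate block, at 0.37 (adjusted p = 0.035). Tfeb gave -0.05 ± 0.17 (adjusted p = 0.87) and the paralogue Tfec, which was not targeted, -0.32 ± 0.23 (adjusted p = 0.37). Grn itself had an interaction of 0.10 ± 0.15 (adjusted p = 0.70).

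Among markers of other cells, S100a8 and Pf4 were called in the interaction. S100a8, a calcium-binding protein of neutrophils, was at 8.54 to 11.6 CPM in GrnKO TKO, 11.4 to 13.4 in GrnKO Rosa26, 12.1 to 14.3 in WT TKO and 6.92 to 13.2 in WT Rosa26 (interaction -0.65 ± 0.20, adjusted p = 0.038). The other 8 neutrophil markers stayed below 1 CPM in every library. Pf4, a platelet chemokine that macrophages also express, averaged 612 ± 78.02 CPM in GrnKO TKO and 248 ± 26.2 in GrnKO Rosa26, and 879 ± 68.2 in WT TKO and 465 ± 60.4 in WT Rosa26 (SD, n = 4 each; interaction 0.38 ± 0.12, adjusted p = 0.041). With 1 library left out, S100a8 kept its call in 4 cases (GrnKO TKO of batch 1 or 3, WT Rosa26 of batch 2 or 4) and was at adjusted p 0.051 to 0.10 in the rest. Pf4 kept its call in 5 (batch 3 of GrnKO TKO, GrnKO Rosa26 or WT TKO, and WT Rosa26 of batch 2 or 4) and was at adjusted p 0.053 to 0.11 in the rest. Pf4 was counted under 2 lists, as a chemokine and as a megakaryocyte marker. The part of these markers in the other results was not tested.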

How the data were processed

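Libraries were made per the labels' protocols with a QuantSeq 3′ kit that adds unique molecular identifiers, from 16 samples. The submitters' processing notes list the build GRCm39, R 4.5.1 with edgeR 4.6.2, the aligner STAR 2.7.9a and the quantifier Salmon 1.10.1. Their order and settings, the annotation release, filters and the handling of identifiers are not given in the sources used here. As files the authors deposited estimated counts per gene, of which 11.0% of non-zero values are not whole. They also deposited a normalised signal (expression scaled to the effective library size) and, per the file headers, a library size and a scaling ratio for each library. Both deposited gene tables hold 2 significant digits, which limits the precision of single values. 148 symbols are repeated, and the row with the most counts was used for a symbol.

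Estimated counts were rounded to whole numbers and fitted with edgeR 4.0.16 (R 4.3.3): TMM scaling, filterByExpr on the groups, a robust quasi-likelihood fit of the 4 groups with batch as block, and Benjamini-Hochberg adjustment over the 15385 genes tested, with a threshold of 0.05. The biological coefficient of variation was 12.0%. CPM values use TMM library sizes, and double differences per batch are on log2(CPM + 1). The steps were tested on simulated data. Alternatives were RLE scaling, no filter, a mean of 5 CPM, DESeq2 1.42.0, limma 3.58.1 on the deposited normalised values, no block, a genotype-by-batch block, thinned counts and leaving out each library or batch.

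The replicate number is the labelled batch. Deviations from group means correlated between same-batch samples of one genotype (mean r 0.550 in GrnKO and 0.516 in WT) and little across genotypes (means 0.0742 to 0.143). P-values measure the spread between these samples, which the design counts as separate animals. Samples of one genotype and batch also had like Xist and Ddx3y levels. Whether both edits of a genotype and batch used cells of the same animal, or a library held cells of several animals, was not tested. Only the genotype-by-batch block takes such a pairing into account, and the main fit does not. Intervals are at 95% and rest on the SE back-calculated from the F statistic, so they are approximate.

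The comparison and the gene lists were chosen with earlier results of these data known. Named genes are, among those called with one sign in all 4 batches and a group mean of 5 CPM or more, the 12 most positive and 12 most negative, 8 of opposite sign, 8 called in WT only and 4 per same-sign class. Added to these are at most the 3 called genes with the lowest p of each list, Grn and the MiT/TFE genes. Also added are 5 genes called in both edits with the same sign. These 5 had the smallest absolute interaction among such genes that changed at least 2-fold in each genotype. A gene named outside this rule is marked so. A few list members are left unnamed here.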

Additional observations from a re-analysis of the deposited data

Results flagged for a closer look

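In sets of 4 libraries of a group, 1 library stood far from the other 3 in 22 of the 444 sets examined. The sets were those of the 109 named genes whose values are given or plotted here, of the total counts and of the ribosomal share. Chance sets apart about 1 in 20 such sets. In GrnKO TKO the values were 17.7 CPM for Cd28 and 28.1 CPM for Mcoln2 in batch 1, and 4.95 CPM for 1190005I06Rik, 59.4 CPM for Ier3 and 32.98 CPM for H2-DMb1 in batch 2. They were 19.98 CPM for Tnip3, 105 CPM for Mvd and 12.6 CPM for F13a1 in batch 3, and 118 CPM for Ndufb3 and 239.9 CPM for Ndufa1 in batch 4. In GrnKO Rosa26 they were 182 CPM for Itgam in batch 1, 395 CPM for C1qa in batch 2 and 115.004 CPM for Slc36a1 in batch 4. In WT TKO they were 2522 CPM for Grn in batch 1, 15.9 CPM for Ccl5 in batch 3, and 44.04 CPM for Nr4a1, 63.6 CPM for Plin3, 11.4 CPM for C1ra and 28.6 CPM for H2-DMb1 in batch 4. In WT Rosa26 they were 288 CPM for Atp6v1g1, 72.1 CPM for Abcg1 and 4.15 CPM for Plxdc2 in batch 3.

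The response to editing differed between the genotypes by the test of the interaction itself in 893 genes with a positive and 1174 with a negative value, and 41 of these changed in opposite directions.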

How the results depend on the processing

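The counts moved with the replicate block, the method and the libraries used. With no replicate block there were 361 positive and 549 negative genes in the interaction, 164 raised and 52 lowered by editing in WT, and 9 of opposite sign. With the genotype-by-batch replicate block these numbers were 1635, 1972, 690, 481 and 153. No filter on low counts gave 1860 negative genes, 520 raised in WT and 74 of opposite sign. DESeq2 gave 506 raised and 302 lowered in WT and 67 of opposite sign, limma on the authors' normalised values 2027 negative genes, and thinned counts 764 negative genes, 1781 lowered in GrnKO and 20 of opposite sign. Of the 2067 genes, 909 were among the 910 called with no block and 2028 among the 2544 called by DESeq2.

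With a library or a batch left out, positive genes numbered 133 to 1684, negative genes 150 to 1924, genes raised in GrnKO 1230 to 2577 and lowered 1407 to 3010, genes raised in WT 102 to 450 and lowered 28 to 300, and genes of opposite sign 2 to 155. The interaction counts were highest without WT Rosa26 of batch 3 and lowest without batch 4. Which property of these libraries sets the counts was not tested. The 118 named genes called in the interaction kept their sign in every setting. They were chosen as called and the settings reuse the same libraries, so this is no separate evidence. Among named genes not called, signs turned in some settings: the interaction ranged over -0.96 to 0.38 for F13a1, -0.25 to 0.07 for Tfeb, -0.01 to 0.22 for Grn, -0.05 to 0.32 for Mgl2, -0.35 to 0.11 for Apoc2, -0.31 to 0.02 for Fcrls and -0.40 to 0.01 for Plxdc2. The median interaction of all genes tested was -0.09 with limma and 0.04 with no filter.

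Limits are few samples, mixed edited pools, 3′ tags that do not read the edit, rounded deposited values, a shallow WT Rosa26 library, and Xist and Ddx3y levels that differ between batches of one genotype.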

Other observations

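Among stress, protease, growth and osteoclast genes, a few further responses differed between genotypes. Sdf2l1, a chaperone partner of the endoplasmic reticulum, lay at 20.96 to 27.4 CPM in GrnKO TKO, 39.3 to 45.4 in GrnKO Rosa26, 14.3 to 25.4 in WT TKO and 14.9 to 23.9 in WT Rosa26, with an edgeR interaction of -0.92 ± 0.18 (adjusted p = 0.0040). Cdkn1a, the cell cycle inhibitor p21, averaged 1452 ± 138 CPM in GrnKO TKO and 927 ± 35.3 in GrnKO Rosa26, and 1433 ± 226 in WT TKO and 1343 ± 216 in WT Rosa26 (SD, n = 4 each), and was positive (0.55 ± 0.14, adjusted p = 0.015). The membrane protease Adam8 averaged 1162 ± 128 CPM in GrnKO TKO and 953 ± 83.00 in GrnKO Rosa26, and 1191 ± 212 in WT TKO and 1455 ± 274 in WT Rosa26 (0.57 ± 0.13, adjusted p = 0.0076). Dcstamp, which macrophages need to fuse into osteoclasts, was low, at 4.74 to 12.1 CPM in GrnKO TKO, 3.83 to 6.64 in GrnKO Rosa26, 3.27 to 13.6 in WT TKO and 6.58 to 23.1 in WT Rosa26 (1.48 ± 0.37, adjusted p = 0.019). Without any block the adjusted p was 0.055 for Cdkn1a, 0.070 for Adam8 and 0.18 for Dcstamp. Sdf2l1 was at 0.057 with thinned counts.

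Of the unnamed gene models among the 12 most positive, 3010001F23Rik had 13.2, 10.6, 12.1 and 8.54 CPM in GrnKO TKO, against 2.11, 2.68, 2.10 and 1.74 CPM in GrnKO Rosa26, and 14.3, 11.8, 10.02 and 10.4 CPM in WT TKO, against 15.4, 10.3, 9.01 and 7.13 CPM in WT Rosa26. GrnKO Rosa26 lay below all other libraries (interaction 2.14 ± 0.21, adjusted p = 8.7e-06).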
